A study of Mus musculus
Mus spretus with 18 samples.

Results

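The immediate early genes Fos, Fosb, Jun, Junb, Atf3, Egr1, Myc, Ier2, Ier3 and Btg2 were examined in RNA sequencing (RNA-seq) libraries of F1 hybrid mice. They were chosen by name, with earlier results of these data known. Each of the 10 matched 1 row of the 38924 genes in the expression table. Expression was measured in TPM (transcripts per 1000000), which divides reads by gene length and then by the total of the library. The hybrids came from mothers of the laboratory strain C57BL/6J and fathers of SPRET/EiJ, a strain of the wild species Mus spretus, so every library below carries both genomes. Cortex, heart, kidney, lung, spleen and liver came from 2 female mice aged 8 weeks, so that organs share animals, and embryonic stem cells (ESC) from 2 independent clones grown with 2i inhibitors and LIF. The labels of liver read C57BL/7J and C57BL/8J in place of C57BL/6J, and these libraries were taken as the study's methods describe them. A fibroblast cell line derived from the same hybrids was treated for 4 h with 0.1 μM pladienolide B (PladB), an inhibitor of splicing that targets SF3B, a part of the U2 snRNP, or with its solvent DMSO. Each of the 9 groups held 2 libraries. The fibroblast libraries came from 1 cell line and the labels do not say whether they were separate cultures, so p-values measure only the spread between these libraries.

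Immediate early genes are switched on within minutes of a stimulus such as serum, growth factors or stress, by transcription factors that are already present in the cell, and without new protein synthesis. Most are short genes with few introns, and their mRNAs are degraded fast, in part through AU-rich elements in the 3′ UTR. They are also known to be induced by tissue handling and dissociation. In this set, Fos and Fosb pair with Jun and Junb to form the transcription factor AP-1, Atf3 is a stress-induced partner of Jun proteins, and Egr1 is a zinc finger factor downstream of SRF. Myc drives growth and proliferation, Ier2 and Ier3 are immediate early response genes, Ier3 being known for its part in cell survival, and Btg2 is an antiproliferative gene whose protein promotes deadenylation. Jun, Junb and Ier2 consist of a single exon, whereas the other 7 genes contain introns. The question was how these levels responded when splicing was blocked, and how they differed among tissues.

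The genes lie on mouse genome build mm10 (GRCm38), with RefSeq spans between 1199 bp (Ier3, chr17:35821713-35822911) and 13038 bp (Atf3, chr1:191170296-191183333). Fos spans chr12:85473890-85477274, Fosb chr7:19302696-19310118 and Myc chr15:61985341-61990361. Junb (chr8:84976909-84978748) and Ier2 (chr8:84661331-84662852) both lie on chromosome 8, and Jun spans chr4:95049036-95052222. Btg2 lies at chr1:134074865-134079155 and Egr1 at chr18:34861207-34864956.

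Counted over all skipped exon (SE) events, junction reads came to between 46558287 and 129496306 per library in tissues and between 129067054 and 151755602 in fibroblasts. Marker genes of each of the 7 tissues and of fibroblasts had their highest sum in the group of that label, with the fibroblast markers summing to 6914 and 6837 TPM after DMSO and 7185 and 7029 TPM after PladB. In fibroblasts, leukocyte markers summed to between 11.5 and 14.02 TPM, with 3 of 5 below 1 TPM, endothelial markers to at most 0.21 TPM, and red blood cell markers were listed at 0. After PladB the composition of the libraries had shifted: the nuclear RNA MALAT1 stood at 19206 and 19142 TPM against 273 and 216 TPM after DMSO, and mitochondrially encoded genes took 10.9% and 11.0% of TPM against 8.45% and 8.49%. Of 13221 genes tested, 73.1% were lower after PladB and 15.8% higher (limma, Benjamini-Hochberg adjusted p under 0.05), and the median gene changed by a log2 fold change of -1.13. Since TPM is a share of a fixed total, changes below are given as deposited, and for the 10 genes also as the distance above or below this median gene.

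Among the 10 immediate early genes, 7 were higher after PladB (Fosb, Junb, Atf3, Egr1, Myc, Ier3 and Btg2), Jun and Ier2 were lower, and Fos did not pass the test. The 2 groups of libraries did not overlap for 9 of them, where 94.5% of all tested genes did not overlap. The median log2 fold change over the 10 genes was 0.83, against the -1.13 of all tested genes, and 9 of the 10 lay above the median gene. When each library was instead centred on its median gene, which adds 1.43 to every log2 fold change and puts the median tested gene at 0.29, 9 were higher, Jun no longer passed, and Ier2 turned from lower to higher, at 0.30 and so level with the median gene. Of all tested genes 51.5% were then higher and 36.6% lower.

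**Figure D1:**
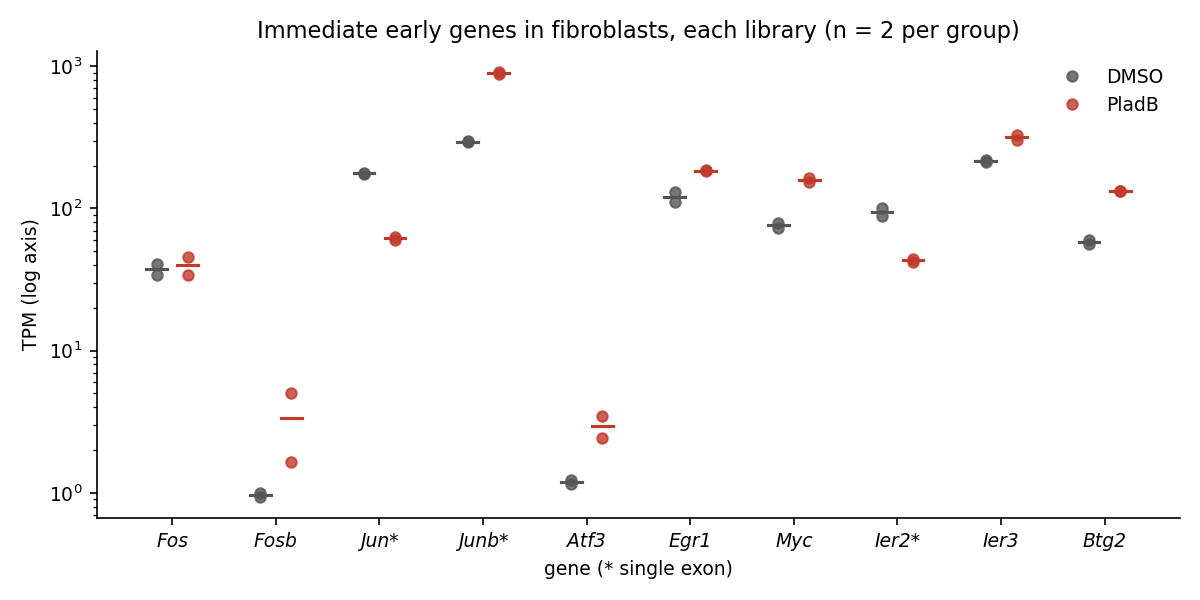
TPM (log axis) of each immediate early gene in the 4 fibroblast libraries, with the DMSO libraries in grey, the PladB libraries in red, a bar at the mean, and single-exon genes starred. The groups overlap for Fos alone, Jun and Ier2 are lower after PladB in TPM as deposited (centred on the median gene, Jun does not pass and Ier2 passes as higher while level with the median gene), and the widest gap between PladB libraries is that of Fosb (1.66 and 5.05 TPM).

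The AP-1 genes gave the widest range of responses. Fos was at 40.6 and 34.1 TPM after DMSO and at 34.1 and 45.8 TPM after PladB. The libraries overlapped, and the log2 fold change was 0.09 ± 0.17 (SE, limma adjusted p = 0.641), which lies 1.22 above the median gene and passes once libraries are centred (adjusted p = 0.000167). Fosb was low, at 1.00 and 0.94 TPM after DMSO and 1.66 and 5.05 TPM after PladB. Both PladB libraries were above both DMSO libraries, but they differed 2.93-fold between themselves on the log2(TPM + 0.1) scale. Its log2 fold change of 1.49 ± 0.52 passed narrowly (adjusted p = 0.0423) and lies 2.62 above the median gene. With a DMSO mean of 0.97 TPM, Fosb reached the filter of 1 TPM only through the PladB libraries, where it was high. Fosb no longer passed with a pseudocount of 1 (adjusted p = 0.0532), without the filter on low values (adjusted p = 0.0866), without the trend (adjusted p = 0.0653), or without the first or second DMSO library (adjusted p = 0.0698 and 0.0853), and without the second PladB library the log2 fold change was 0.71 (adjusted p = 0.0177).

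The 2 Jun genes moved in opposite directions, although both are single-exon genes. Jun was at 179 and 175 TPM after DMSO and at 60.4 and 62.6 TPM after PladB. The PladB libraries held 0.347 times the DMSO mean (log2 fold change -1.52 ± 0.04, limma adjusted p = 3.93e-06), which is 0.39 below the median gene and does not pass after centring (-0.10, adjusted p = 0.103). Junb was the most abundant of the set in fibroblasts, at 299 and 293 TPM after DMSO and 886 and 913 TPM after PladB. It thus stood 3.04-fold higher (log2 fold change 1.60 ± 0.03, adjusted p = 3.47e-06), which is 2.74 above the median gene and above 97.3% of tested genes. The ratio of Junb to Jun TPM thus went from 1.67 in both DMSO libraries to 14.7 and 14.6 after PladB, a ratio that does not depend on the scaling of a library.

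Atf3, which is induced in the stress response, was low in both conditions, at 1.23 and 1.15 TPM after DMSO and 2.43 and 3.46 TPM after PladB. Its groups did not overlap (log2 fold change 1.22 ± 0.19, limma adjusted p = 0.00244, 2.35 above the median gene). Egr1 was at 131 and 112 TPM after DMSO and at 183 and 187 TPM after PladB. This was a smaller rise, of 0.61 ± 0.08 on the log2 scale (adjusted p = 0.00116, 1.75 above the median gene), and it did not pass when all 18 libraries shared one estimate of the spread (adjusted p = 0.491).

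Myc and Btg2, which act on proliferation in opposite ways, were both higher. Myc was at 78.9 and 73.5 TPM after DMSO and at 153 and 164 TPM after PladB (log2 fold change 1.05 ± 0.06, limma adjusted p = 3.35e-05). Btg2 was at 60.1 and 56.1 TPM after DMSO and at 132 and 133 TPM after PladB (1.19 ± 0.05, adjusted p = 1.19e-05). They lay 2.19 and 2.32 above the median gene, at percentile 95.9 and 96.4 of the tested genes, and stood at 2.08-fold and 2.28-fold by the means.

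The 2 immediate early response genes diverged. Ier2, with a single exon, was at 101 and 88.6 TPM after DMSO and at 44.4 and 42.1 TPM after PladB. The log2 fold change of -1.13 ± 0.08 (limma adjusted p = 7.49e-05) equals that of the median gene to within 0.01, and centring turned it to 0.30 (adjusted p = 0.0137), where the median gene stood at 0.29. Ier3, with introns, was at 220 and 211 TPM after DMSO and at 303 and 329 TPM after PladB. Its rise of 0.55 ± 0.05 (adjusted p = 0.00031) was the smallest of those that passed, 1.69 above the median gene, and in the fit over all 18 libraries it did not pass (adjusted p = 0.137).

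**Figure D2:**
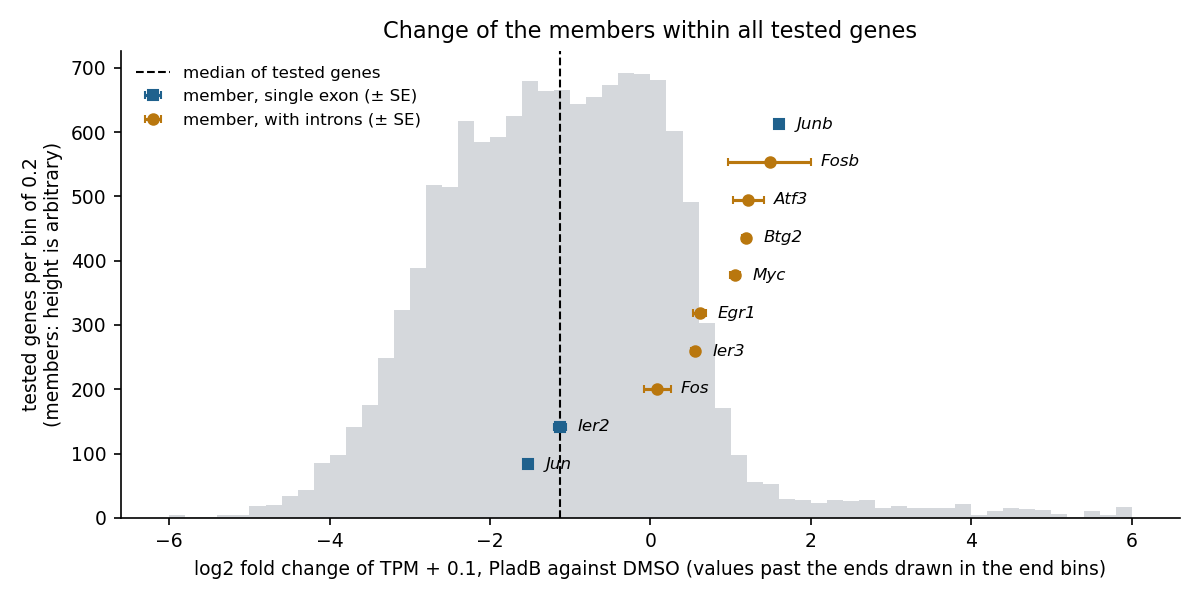
Histogram of the log2 fold change (TPM + 0.1, PladB against DMSO) of all tested genes, in grey, with the immediate early genes as points ± SE (squares for single-exon genes, circles for genes with introns, at arbitrary heights) and the median gene as a dashed line. Ier2 lies on the line, Jun below it, and the other 8 genes above it, with Junb, Fosb, Atf3, Btg2 and Myc in the upper tail.

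Gene structure did not separate the set in one direction. Of the 3 single-exon genes, Jun and Ier2 were lower and Junb higher, and of the 7 genes with introns 6 were higher, 0 lower and 1 (Fos) did not pass. The median log2 fold change was -1.13 over the single-exon genes and 1.05 over those with introns, with 3 and 7 genes behind these values. Other single-exon genes known from textbooks, none of which had an SE or retained intron event in the data, were read beside them. Of 14 tested (Sox11 fell under the filter), 4 were higher (Rhob, Ier5, Cebpd and Cebpb) and 10 lower, beside 15.8% and 73.1% of all tested genes, with a median of -1.10. All 4 higher ones, and Jund and Ier5l among the lower, also stand on the lists of other immediate early genes below. The tested single-exon genes outside those lists were all lower in TPM as deposited, so these counts mix both kinds. After centring they split. H2afx (1.02), Sox12 (0.98), Foxc1 (0.39) and Hspa1a (0.25) passed as higher. Foxc2 (-1.57), Foxd1 (-0.71) and Hspa1b (-0.14) passed as lower, and Sox4 did not pass. Of all 14, 8 were higher and 5 lower after centring, beside 51.5% and 36.6%. Jund, the third Jun gene and also without introns, was at 89.2 and 84.8 TPM after DMSO and at 18.9 and 21.1 TPM after PladB (-2.12 ± 0.07, limma adjusted p = 6.6e-06), a fall that held after centring (-0.69, adjusted p = 0.000126).

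Immediate early genes are short, and up to 100 kb the median change after PladB was lower for longer genes. Spans from RefSeq were found for 95.6% of tested genes. The median log2 fold change was 0.25 for the 1210 genes under 2 kb, -0.22 for 1181 genes of 2 to 5 kb, -0.98 for 3911 genes of 5 to 20 kb and -1.69 for both the 4924 genes of 20 to 100 kb and the 1413 over 100 kb. Set against genes of their own span, Jun (-1.30) and Ier2 (-1.38) were lower, and the other 8 lay above by 0.30 (Ier3) to 2.47 (Fosb) on the log2 scale. Fos, 0.31 above genes of 2 to 5 kb, and Ier3 were the closest to their own class. This is a description, and the part of gene length in the change was not tested.

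Related genes were then read from 6 lists, also chosen with earlier results known. The 10 genes above were left out, and some genes are shared between lists. The lists were not matched for gene span, and its part in their counts and medians was not tested. Each count of genes higher and lower is to be read against the 15.8% and 73.1% of all tested genes, and after centring against 51.5% and 36.6%. Among other immediate early transcription factors, 15 of 27 tested genes were higher and 10 lower (median log2 fold change 0.42), and after centring 23 were higher and 2, Jund and Ier5l, lower. Klf10, a TGF-beta induced Krüppel-like factor, went from 35.4 and 34.4 TPM to 287 and 353 TPM (3.18 ± 0.10), and Csrnp1 from 6.70 and 6.77 TPM to 17.7 and 23.1 TPM (1.57 ± 0.14). Ier5l, a single-exon relative of Ier2, went the other way, from 119 and 113 TPM to 22.2 and 21.9 TPM (-2.39 ± 0.05).

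Of 34 immediate early genes for signalling and feedback that were tested, 20 were higher, 9 lower and 5 did not pass, with a median of 0.61, and after centring 31 were higher and 1 lower. The 4 of them with the largest change were Cxcl2, Tnfaip3, Nfkbia and Gadd45b. Cxcl2, a chemokine, went from 0.46 and 0.40 TPM to 16.9 and 22.2 TPM (log2 fold change 5.19 ± 0.16), and reached the filter on low values only through the PladB libraries. Tnfaip3, an inhibitor of NF-kappaB signalling, went from 10.1 and 9.97 TPM to 308 and 335 TPM (4.99 ± 0.05). Nfkbia, which encodes the inhibitor IkappaB-alpha, reached 1080 and 1614 TPM from 126 and 125 TPM. Gadd45b, a growth arrest and stress gene, reached 1922 and 2409 TPM from 210 and 202 TPM. Dusp1, the phosphatase that turns MAP kinases off and a classical companion of Fos, did not pass, at 122 and 109 TPM against 99.8 and 107 TPM (adjusted p = 0.0729). It lay 0.97 above the median gene, passed as higher after centring (1.26, adjusted p = 1.34e-05), and was chosen after its values were seen.

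Genes that switch the set on and genes that remove its mRNAs are next, again beside the 73.1% of all tested genes that were lower (36.6% after centring). Of 28 MAP kinase, SRF and CREB genes, 27 were lower and 1 (Mapk3, 0.12) higher, with a median of -2.24, and after centring 19 were lower and 7 higher. Mapk14, which encodes the kinase p38 alpha, went from 46.1 and 46.2 TPM to 2.67 and 2.82 TPM (-4.02 ± 0.06). Mkl2, a cofactor of SRF, stood at -3.54 and Creb1 at -3.51 on the same scale. Of 24 genes for AU-rich element binding and deadenylation, 0 were higher and 22 lower, with a median of -1.79, and after centring 6 were higher and 13 lower. The 2 that did not pass were Zfp36 (0.21, adjusted p = 0.0546) and Hnrnpd (-0.13, adjusted p = 0.0819), and by limma's unadjusted p, Zfp36 alone of the list was higher. Subunits of the CCR4-NOT deadenylase complex, to which Btg2 protein binds, were among the lowest, with Cnot6l at -3.22, Cnot2 at -2.81 and Cnot1 at -2.55, next to Khsrp, a protein that binds AU-rich elements, at -2.65.

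Atf3 and Btg2 also belong to stress pathways. Of 18 p53 targets, of which Btg2 is a further one, 4 were higher and 11 lower (median -0.71), and after centring 11 were higher and 4 lower. Plk2 rose by 2.31 ± 0.10, whereas Eda2r fell by 3.83, Sesn1 by 3.75 and Zmat3 by 1.73. Of 13 genes of the integrated stress response, to which Atf3 belongs, 2 were higher and 8 lower (median -0.25), and after centring 9 were higher and 4 lower. Beside these counts stand the 15.8% higher and 73.1% lower of all tested genes, or 51.5% and 36.6% after centring. The 2 higher ones were Atf4 (1.30) and Ppp1r15a (0.74). The 4 with the largest change were Trib3 at -3.24, Nupr1 at -2.74, Cebpg at -2.63 and Sesn2 at -1.71.

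**Figure D3:**
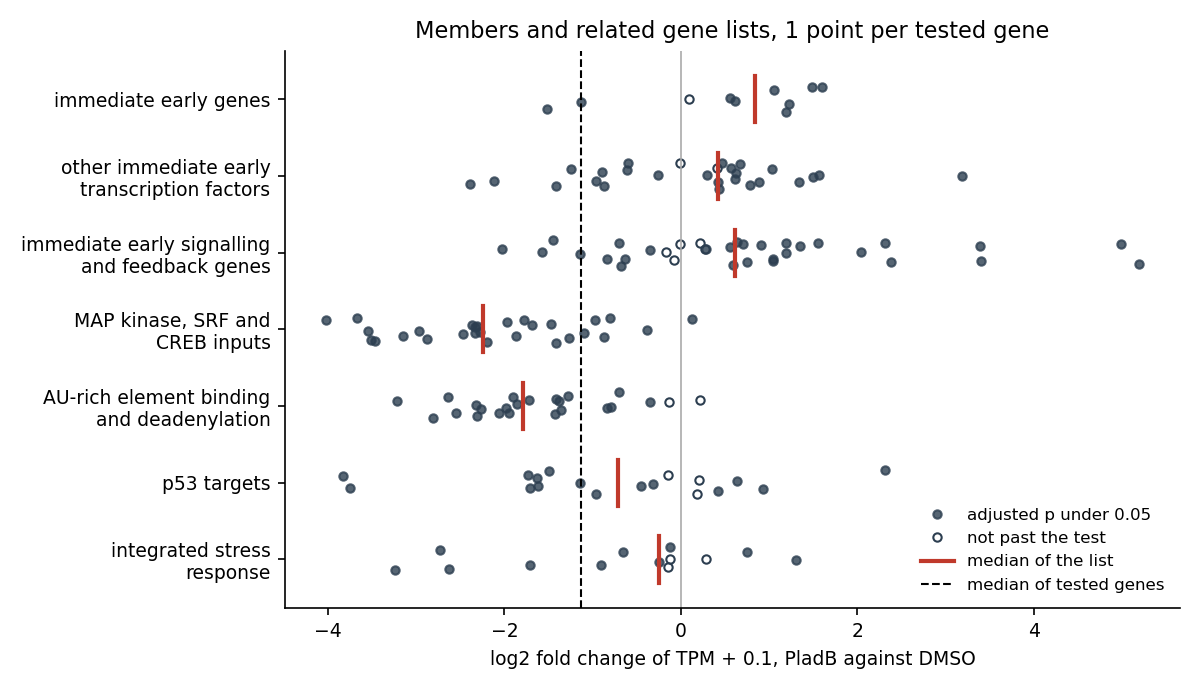
Log2 fold change (TPM + 0.1, PladB against DMSO) of each tested gene in the immediate early set and 6 related lists, filled where the adjusted p is under 0.05, with the median of each list in red and the median of all tested genes as a dashed line. The 3 immediate early lists centre to the right of 0 (medians 0.83, 0.42 and 0.61), and the input and decay lists to the left of the dashed line (-2.24 and -1.79).

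Splicing of the set itself could be followed for Fos, Myc and Atf3, which had 5 events in the fibroblast tables, 1 retained intron (RI) and 4 SE. The other 7 genes had none. An SE event needs an internal exon, which single-exon genes and genes with a single intron lack. This does not bear on RI events, which Fosb, Egr1, Ier3 and Btg2 also lacked although they contain introns. Why each of the 7 had no event was not tested. Percent spliced in (PSI) was computed from junction reads divided by the effective length of each form, and 4 of the 5 events had at least 20 reads in each library. None of the 4 passed the test (quasi-binomial model with moderation by limma, adjusted p under 0.05 and a PSI difference of at least 0.1), and 0 had an unadjusted p under 0.05. Over all events, 34.7% of 1877 RI events were higher after PladB, and 8.02% of 56291 SE events lower.

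PSI of the constitutive exons stayed near 1. The middle exon of Fos (exon 2, chr12:85474935-85475186, 252 bp) had 1012 and 927 inclusion reads after DMSO and 666 and 1125 after PladB, with at most 3 skipping reads in any library. Exon 2 of Myc, from position 61987507 to 61988278 on chromosome 15, had 2091 and 1951 inclusion reads after DMSO and 1428 and 1890 after PladB, with 1 skipping read in all. A short Atf3 exon of 28 bp had between 4 and 7 inclusion reads per library and was not tested.

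The RI event of Fos lies inside intron 1 (chr12:85474181-85474934, 754 bp). It joins an exon within that intron to exon 2 across the last 139 bp of the intron. Reads that ran unspliced across the borders of this 139-bp stretch numbered 149 and 178 after DMSO and 410 and 541 after PladB. Reads that spliced it out were 0 and 0, and 4 and 6, so that PSI was 1 in both DMSO libraries and 0.982 and 0.979 after PladB (adjusted p = 0.149). PSI of this event is therefore near its ceiling in both groups and says little about intron 1 as a whole.

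Set against spliced Fos reads, the intron reads told the groups apart. The intron reads are those that ran unspliced across the borders of the 139-bp stretch. Per 100 reads joining exon 2 to its neighbours, they numbered 14.7 and 19.2 after DMSO and 61.6 and 48.1 after PladB. The upstream border lies inside intron 1, and the spliced reads include those joining exon 2 to the next exon. The ratio is therefore not a rate of retention of intron 1. Its means were 17.0 ± 3.2 and 54.8 ± 9.5 (SD, n = 2 each), a 3.23-fold difference without overlap between the groups. The ratio is given for Fos alone, with no share over other introns beside it. With 2 libraries against 2, an exact two-sided permutation test cannot go below p = 0.333, and no test was run on this ratio. Per 1000000 SE junction reads, spliced Fos reads numbered 6.80 and 6.13 after DMSO and 5.16 and 7.53 after PladB, a log2 difference of -0.05 that stood at percentile 79.2 of 8846 genes with such an event (median -1.32).

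For Myc, spliced reads and TPM gave different pictures. In its exon 2 event with the most reads, junction reads per 1000000 were 14.1 and 12.9 after DMSO and 11.1 and 12.7 after PladB. The log2 difference was -0.18 (percentile 75.8 of 8846 genes with such an event, median -1.32), where TPM gave 1.05. In the event with a second acceptor, described below, they were 10.2 and 9.47 after DMSO and 10.5 and 11.7 after PladB. These were higher in both PladB libraries, so the direction depended on the event. For the event with the most reads, the difference between both measures, 1.24, was above that of 90.8% of the 8846 genes, and their median was -0.06. For Fos the same difference was 0.14, at percentile 64.9. TPM counts every read over an exon, whereas the junction count takes only reads that cross a splice site, and the scaling of the 2 measures differs, so levels are not compared between them.

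The 2 Myc events share the exon's downstream junction and differ in an acceptor site 3 bp further in, at position 61987510. The event with the first acceptor had 573 and 514 more reads than that with the second after DMSO (2091 against 1518, and 1951 against 1437). After PladB the excess was 74 and 144 reads (1428 against 1354, and 1890 against 1746). Since the shared junction drops out of this subtraction, it gives the excess of first over second acceptor reads. Per 1000000 SE junction reads it was 3.85 and 3.39 after DMSO and 0.57 and 0.96 after PladB. The groups did not overlap, but no share over other exons stands beside this. The ratio of both acceptors cannot be had from these counts, and no test was run on the excess.

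**Figure D4:**
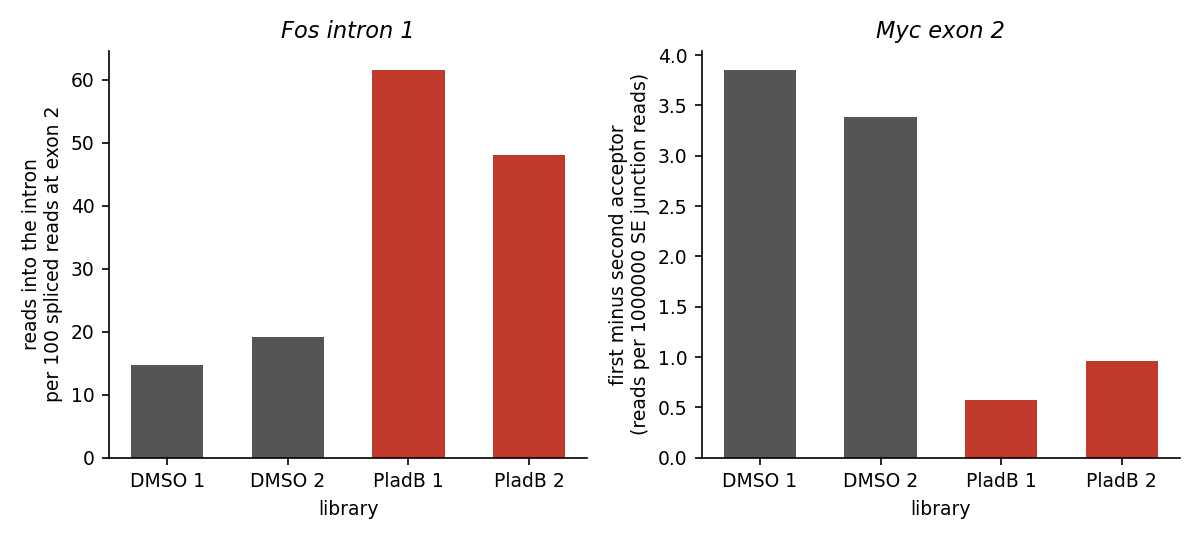
Left, Fos reads running unspliced across the borders of the 139-bp stretch in intron 1, per 100 spliced reads at exon 2. Right, excess of first over second acceptor at Myc exon 2 per 1000000 SE junction reads. Each bar is 1 fibroblast library. The Fos ratio is higher in both PladB libraries (61.6 and 48.1 against 14.7 and 19.2), and the Myc excess lower (0.57 and 0.96 against 3.85 and 3.39).

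Reads that could be given to one parental allele covered Fos exon 2 after DMSO. The C57BL/6J allele had 281 and 258 inclusion reads and the SPRET/EiJ allele 318 and 238, so that 46.9% and 52.0% of them came from C57BL/6J, with 1 skipping read in all. No event of the 10 genes stood in the allelic table after PladB, so a change with treatment was not analysed here.

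Across the 7 tissues all 10 genes differed (limma F test, adjusted p between 1.19e-07 for Jun and 0.000634 for Egr1), as did 99.7% of 19138 genes tested. The F values of the set were not high: between 50.9% (Jun) and 96.0% (Egr1) of genes had a larger one. In tissue RNA, fewer cells of a type and less RNA per cell cannot be told apart. Cortex, heart and kidney were sequenced with longer reads, which the authors trimmed to the read length of lung, spleen and ESC. Liver was sequenced in an earlier study. The sequencing class therefore cannot be told apart from tissue in comparisons across these classes. Organs share 2 animals, and all 10 genes also passed the F test with the replicate number as a block. Within cortex, heart and kidney all 10 genes passed, with 96.2% of all genes, and within lung, spleen and ESC 9 passed, with 84.5% of all genes, the exception being Ier2 (adjusted p = 0.142).

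Liver was the low end for most of the set. Both liver libraries were below the other 12 for 7 of the 10 genes (Fos, Fosb, Jun, Junb, Atf3, Ier3 and Btg2), where this held for 46.2% of all genes. Fos was at 1.54 and 2.04 TPM in liver, Jun at 5.75 and 4.44 TPM and Ier3 at 1.95 and 1.66 TPM. Myc was an exception, with 15.5 and 8.44 TPM in liver and its lowest values, 2.28 and 3.33 TPM, in heart.

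Lung was the high end for Fos, Jun and Ier3, with both libraries above the other 12, where this held for 9.52% of all genes. Ier3 in lung was at 289 and 317 TPM, 168-fold above liver by the means, and next came kidney with 91.8 and 61.9 TPM. Jun was at 276 and 341 TPM in lung and next at 58.5 and 64.5 TPM in cortex. Fos in lung was at 33.3 and 136 TPM, just above the 28.0 and 32.7 TPM of cortex at its lower value, and the means of 84.7 ± 72.6 and 30.3 ± 3.3 TPM do not differ beyond the spread of lung. Leukocyte markers summed to 4699 and 6090 TPM in lung and endothelial markers to 1640 and 1750 TPM, above the other tissues in each library, and fibroblast markers to 1656 and 1755 TPM, next to 1055 and 1133 TPM in cortex. Their part in these levels was not tested.

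Cortex was the high end for Egr1 and Fosb, with both libraries above the other 12, where this held for 23% of all genes. Egr1, a gene known to follow neuronal activity, was at 113 and 132 TPM in cortex and next at 22.9 and 47.0 TPM in lung. Fosb was at 5.43 and 5.70 TPM in cortex against 3.61 and 3.52 TPM in lung. In cortex Myc (3.51 and 3.52 TPM), Atf3 (1.05 and 1.05 TPM) and Ier2 (14.1 and 14.9 TPM) were near their low ends, so the set did not move as one.

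Spleen was the high end for Myc, at 88.1 and 93.7 TPM, with both libraries above the other 12, where this held for 12.4% of all genes. ESC (5.68 and 20.8 TPM) and liver (15.5 and 8.44 TPM) overlapped for Myc, so the next place was not resolved. Btg2 was at 291 and 221 TPM in spleen and 131 and 247 TPM in lung, and Junb at 121 and 91.8 TPM in spleen and 79.6 and 111 TPM in lung. For both genes these 2 organs overlapped, and their order was not resolved. Spleen was low for Ier3 (17.6 and 11.8 TPM) and Jun (23.0 and 18.8 TPM).

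In ESC, Atf3 was above the other 12 libraries at 53.8 and 14.9 TPM, where 20.9% of all genes had ESC above the rest, and lung came next at 9.57 and 11.2 TPM. An internal stretch of Atf3 was listed in overlapping forms of 110 and 244 bp, the longer containing the shorter. Against skipping, both were near full PSI in ESC (between 0.985 and 0.997) and in spleen (between 0.949 and 1). The 28-bp exon named above also lies within the longer form, and its PSI in ESC was 1 and 0.946. These values do not tell the forms apart. Egr1 had its lowest mean in ESC, at 0.30 and 4.33 TPM. Ier2 was high there, at 93.1 and 122 TPM, and could not be told apart from lung (112 and 135 TPM), while kidney (14.8 and 15.8 TPM), cortex and liver (15.4 and 12.4 TPM) overlapped at the low end.

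**Figure D5:**
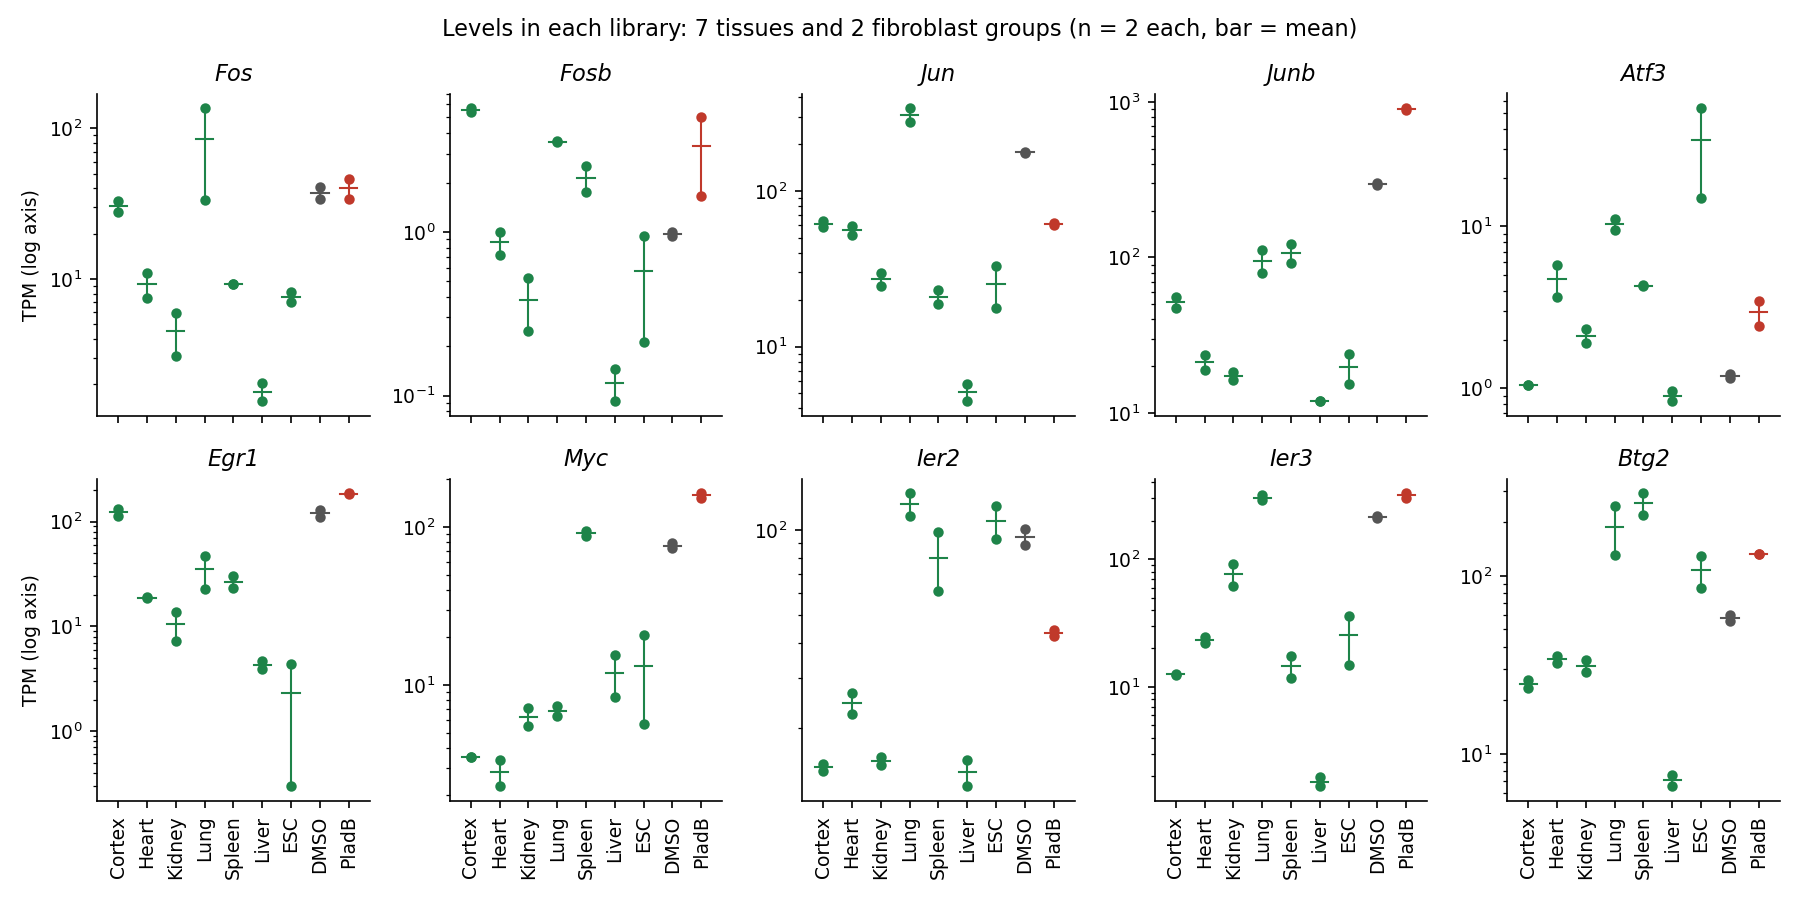
TPM (log axis) of each immediate early gene in all 18 libraries, with tissues in green, DMSO fibroblasts in grey and PladB fibroblasts in red, 1 point per library, a line between both and a bar at the mean. Liver is low for most genes, the high end moves between lung, cortex, spleen and ESC, and both points of a tissue lie far apart for Fos in lung and for Egr1, Fosb, Atf3 and Myc in ESC.

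The DMSO-treated fibroblasts stood near the high end of most genes. After DMSO, Junb (299 and 293 TPM) was above all 14 tissue libraries, Jun (179 and 175 TPM) and Ier3 (220 and 211 TPM) were above all tissues but lung, and Egr1 (131 and 112 TPM) overlapped with cortex. Fosb (1.00 and 0.94 TPM) and Atf3 (1.23 and 1.15 TPM) were low. After PladB, Jun (60.4 and 62.6 TPM) came to overlap with cortex, Ier3 (303 and 329 TPM) with lung, and Egr1 (183 and 187 TPM) was above all 14 tissue libraries, as was Myc (153 and 164 TPM). Tissues and fibroblasts were not tested against each other.

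The 2 libraries of a tissue often differed in these genes, which is given as a description. The median difference between both libraries, on the log2 scale and regardless of sign, was 0.32 in kidney over the 10 genes against 0.09 over all genes with a mean of at least 1 TPM. It was 0.29 against 0.09 in lung, 0.27 against 0.10 in heart, 0.11 against 0.08 in cortex, 0.28 against 0.14 in liver, 0.38 against 0.22 in spleen and 1.08 against 0.43 in ESC. In fibroblasts it was 0.09 against 0.06 after DMSO and 0.09 against 0.09 after PladB. Fos differed 4.08-fold between lung libraries and Egr1 11.2-fold between ESC clones, on the log2(TPM + 0.1) scale.

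The direction was shared within several groups. In cortex, kidney and lung, 9 of the 10 genes were higher in the second library, against 59.0%, 49.4% and 55.4% of all genes. In spleen 1 of 10 was, against 31.7%, and there spleen markers summed to 14890 and 10343 TPM and red blood cell markers to 2464 and 5162 TPM. In heart 5 of 10 were (62.2% of all genes), in liver 4 (38.5%) and in ESC 4 (45.2%). In fibroblasts 0 of 10 were after DMSO (36.7%) and 9 after PladB (51.1%). In lung, leukocyte markers were also higher in the second library (4699 and 6090 TPM), and red blood cell markers lower (3822 and 2993 TPM). The 10 genes are not independent of each other, and the part of cell makeup in these differences was not tested.

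The likeness of patterns was measured by Pearson's r of log2(TPM + 0.1) over the 18 libraries, among 18907 genes with a mean of at least 1 TPM, as a description over libraries that share tissues and cell lines. Within the set, Jun was the most like Fos (r = 0.89, rank 20 of all genes), then Fosb (0.80), Junb (0.75), Ier3 (0.74), Egr1 (0.72), Btg2 (0.58), Ier2 (0.51), Myc (0.24) and Atf3 (0.14). The genes most like Fos overall were P4ha3 (0.94), Thbs3 (0.94), Gdnf (0.93), Tspan11 (0.93) and Pcdhga9 (0.92). Myc stood apart from the AP-1 genes, with r = 0.02 to Jun and 0.17 to Fosb, except for Junb (0.75). The genes most like Myc were Manf (0.93), Gm15344 (0.92), Txndc5 (0.92), Trmt112 (0.92) and Rnaseh2c (0.91).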

How the data were processed

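The deposited expression values are TPM, which the authors made with featureCounts over exons, by strand, splitting fragments between overlapping genes. The authors aligned reads with HISAT2 2.0.1 to the C57BL/6J (mm10) and SPRET/EiJ genomes and counted junction reads per event with rMATS. The deposited effective lengths of both forms are a score written by rMATS. The deposited p-values, FDR and inclusion level columns hold the authors' comparisons and were not used, nor were 78 per-sample columns of allelic or repeated reads.

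The 10 genes and the gene lists were chosen with earlier results of these data known. The single-exon list, the bins of gene span, the intron and acceptor counts and the within-class F tests were chosen after seeing the data. All genes with a mean of at least 1 TPM were fitted as log2(TPM + 0.1) with limma 3.58.1 (R 4.3.3, trend), with Benjamini-Hochberg adjustment over all of them. Events with at least 20 reads per library were fitted with a quasi-binomial model with moderated dispersion. Scripts were tested on simulated data. Named from each list are the 4 genes past the test with the largest change, of which 1 is not reported here, and other genes of the lists were named after their values were seen. TPM keeps no depth, which was read from junction reads instead. Figures used Python 3.11.15 with matplotlib 3.10.9.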

Additional observations from a re-analysis of the deposited data

How the results depend on the processing

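The change in TPM was recomputed with pseudocounts of 1 and 0.01, without the filter, with a replicate block, centred on the median gene, with all 18 libraries, without the trend, without each library in turn and, chosen after seeing the data, without mitochondrially encoded genes. Junb, Atf3, Myc and Btg2 stayed higher and past the test under all of these, Myc only narrowly in the fit over 18 libraries (limma adjusted p = 0.0496). Centring, which puts the median tested gene at 0.29, gave 6811 genes higher and 4835 lower, Fos at 1.51 (past the test), Jun at -0.10 (no longer past it), Ier2 at 0.30 (reversed, level with the median gene) and 0 of the 10 genes lower (limma, 0 also at an unadjusted p under 0.05). The fit over 18 libraries gave 1324 genes higher, and left Egr1 (0.61) and Ier3 (0.55) short of the test. A log2 fold change of at least 1 left 542 higher. Fosb lost its call with a pseudocount of 1 (1.02, adjusted p = 0.0532), without the filter (1.49, adjusted p = 0.0866) and without the trend (1.49, adjusted p = 0.0653), and ranged from 0.71 to 2.26 without each library, losing the call without either DMSO library. Fos ranged from -0.13 to 0.30, negative without the second DMSO or the second PladB library. In tissues, Ier2 missed the test within lung, spleen and ESC (adjusted p = 0.142). The causes were not tested. Where a library was left out, the lone sample was assumed to vary like the other group.

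The labels number replicates in both fibroblast groups, where deviations of same-numbered libraries had r = -0.02. Over the 15 pairs of organs, which came from 2 animals, r was above 0 in all (0.03 to 0.21, 7 above 0.1), and over the 6 pairs with ESC it was -0.04 to 0.04. The sources used here do not say that a number marks an animal and not every pair was above 0.1, so the main fits have no block. With the replicate block 2055 genes were higher and 9620 lower, no call of the 10 genes changed, and all 10 stayed past the F test. The block cut RI events to 198 higher and 3 lower, and SE events to 0 in both directions (quasi-binomial model, lowest adjusted p = 0.53), with 10 higher and 2034 lower at an unadjusted p under 0.05. No event of Fos or Myc was called with the block, a minimum of 10 reads, a prior without depth trend or without any one library. Trimmed-mean scaling was not run. TPM keeps no depth, so no floor can be given for low genes such as Fosb and Atf3.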
